A study of Oreochromis niloticus with 12 samples.

Results

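The proteasome members of the Nile tilapia (Oreochromis niloticus) transcriptome were taken as all genes of the count tables whose NCBI symbol starts with psma, psmb, psmc, psmd, psme, psmf or psmg, and they numbered 54 of 42609 genes. RNA of fast muscle was sequenced from 6 domesticated females (libraries D53, D63, D66, D68, D70 and D72) and 6 wild females (W53, W63, W66, W68, W70 and W72), all aged 5 months. The domesticated fish were the first generation undergoing domestication, and each was matched by the submitters to a wild progenitor with the same number. The labels name no treatment or genetic change beyond this origin. Ribosomal RNA was depleted before directional libraries were made, and all libraries were read in a single lane. Each library is a sample of whole fast muscle, so fewer cells of a type and less RNA per cell cannot be told apart.

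The proteasome is the protease complex that degrades proteins tagged with ubiquitin in the cytosol and nucleus. Its 20S core is a barrel with outer rings of alpha subunits, which gate entry, around inner rings of beta subunits, some of which cut peptides. The 19S cap has a base, whose ATPases unfold substrates, and a lid, which removes ubiquitin, while other activators can bind the core in place of the cap and dedicated chaperones assist assembly. In muscle the system is known for its part in the breakdown of myofibrillar proteins, and cells of the immune system exchange catalytic beta subunits for alternative ones, forming the immunoproteasome.

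No core, base or lid gene passed the test in either direction when the groups were compared. The alternative beta genes are counted apart from the core here and in what follows. Of the 54 members, 44 had enough counts to be tested, 0 were higher in domesticated fish, where 6.69% of all 8425 genes tested were, and 1 was lower, where 6.5% of all genes tested were, at an adjusted p (limma, Benjamini-Hochberg) below 0.05. The member called lower was psmb13a, an alternative beta gene at low counts, which reached the minimum of the count filter in 6 wild and 0 domesticated libraries, so that the filter and the test share the difference. Unadjusted, 3 of 44 members had p below 0.05, namely psmb13a, psme4a and psmd9, where 29.9% of all genes tested did. The log2 fold change (domesticated over wild) was negative for 22 members and positive for 22, with a median of 0.0019, against -0.02 over all genes tested. The ranges of the domesticated and wild libraries overlapped for all 44 members, while 2.84% of all genes tested lay wholly higher and 2.17% wholly lower in domesticated fish.

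The pattern that dominated the members was a single library. Domesticated library D53 was the highest of the 12 libraries for 25 of the 28 core, base and lid members tested, a share of 89.3%, against 13.2% of all genes tested. Levels are given as CPM, counts scaled to the size of the library, and summary values of these genes are given with and without D53.

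**Figure D1:**
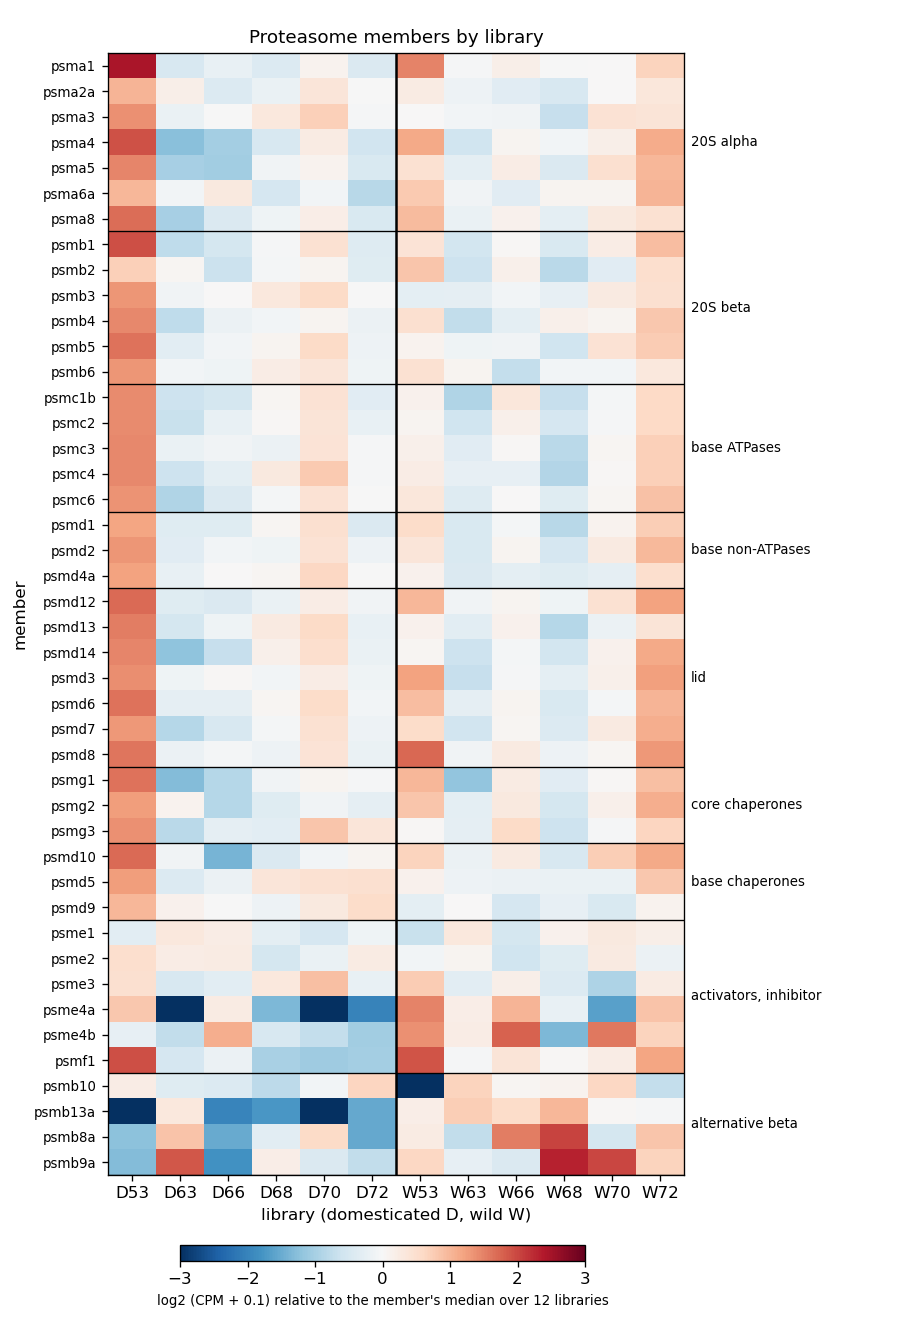
Heat map of the 44 members tested (rows, grouped by role) in the 6 domesticated and the 6 wild libraries (columns). Colour gives log2 (CPM + 0.1) relative to the median of the member over the 12 libraries, and D53 is the dark red column across core, base, lid and assembly chaperones, while the alternative beta genes at the bottom are blue in most domesticated libraries.

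Of the 54 members, 48 had 1 annotated transcript and 6 had more. Among those 6, psmb7 (the trypsin-like catalytic beta subunit), psmc5 (a base ATPase), psmd11b (a lid subunit), psmc3ip and psme3ip1 held 0 to 8 counts over the 12 libraries together, and psmc5, psmd11b and psmc3ip held 0. The files count reads per transcript, and in its default mode the counter used by the authors sets aside reads that overlap several entries. Which settings were used is not stated. The values of these 5 genes were therefore not read as levels. The sixth, psme4a, had 206 counts, all on 1 of its 2 transcripts, and was tested. Of the 10 untested members, the other 5 had 1 transcript and reached the minimum of the count filter in too few libraries. They were psmb11a, psmb11b, psmb12, psma6l and psmg4. Both psmb12 and psma6l reached it in 4 wild and 0 domesticated libraries. The members psmc3ip and psme3ip1 are named for a partner protein and are not subunits. No gene of the tables carried the stem psma7 or psmb14.

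Gene counts ranged between 4312367 and 8478988 (median 7005192.5) in domesticated libraries and between 3395622 and 8472454 (median 6245112) in wild libraries, so that 3 counts, the limit that a count of 0 allows, stood for 0.336 to 0.666 CPM, covering counting error only. CPM were scaled by the trimmed mean of M values and were not divided by transcript length, so levels are compared between libraries and never between genes. Markers of fast muscle were present at high summed levels in every library (187180 to 447640 CPM in domesticated and 74648 to 430890 CPM in wild libraries), and 0 of 14 tested were called. The log2 fold change was nonetheless positive for all 14, between 0.02 for actc1b and 2.58 for acta1a. D53 had the lowest of the domesticated sums, 187180 CPM, against 212100 to 447640 CPM in the other 5. It was the lowest domesticated library for 10 of the 14 markers tested. The erythrocyte and leukocyte sums of D53 were also low, but each was mostly 1 gene. The erythrocyte sum was 379 CPM, of which ank1a made 308 CPM, against 670 to 1295 CPM in the other 5. D53 was 0.43 times the median of the other 5 for ank1a, 0.33 for sptb, 0.87 for rhag and 1.06 for alas2. The leukocyte sum was 1397 CPM, of which lcp1 made 1079 CPM, against 2043 to 4690.5 CPM. Without lcp1 it was 318 CPM, 1.06 times that median, though D53 was the lowest domesticated library for 8 of 13 markers tested. The slow muscle marker sum of D53, 158 CPM, lay within the 89.9 to 471 CPM of the other 5. Of 13 slow muscle markers in the files 4 were tested, of which 2 were higher in domesticated fish and 2 had a negative log2 fold change. Of 9 erythrocyte markers in the files 4 were tested, of which 3 were higher and 1 had a negative log2 fold change. Of all genes tested, 6.69% were higher. The part of the marked cell types in the results was not tested.

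The outer rings of the core were examined first. The 8 alpha genes, with the untested psma6l, summed to 274, 334 and 1275 CPM (lowest, median and highest) in domesticated libraries and 332, 440 and 715 CPM in wild libraries. D53 was the library at 1275 CPM and lay above all wild libraries, whereas D63, D66 and D72 lay below all of them. psma4 (GeneID 100700300), an alpha ring subunit, had the most negative fold change of the ring, with 21.4, 35.9 and 192 CPM in domesticated libraries and 33.8, 56.0 and 114 CPM in wild libraries (log2 fold change -0.50 ± 0.47 SE, adjusted p = 0.514). Both ends of its range were domesticated, D63 at the bottom and D53 at the top. Without D53 its log2 fold change was -0.91 (adjusted p = 0.0944), still short of the threshold. psma3, another ring subunit, had the most positive one, with 42.8, 54.9 and 127 CPM in domesticated libraries and 30.2, 47.7 and 66.6 CPM in wild libraries (0.37 ± 0.29 SE, adjusted p = 0.411). Its groups overlapped and D53 again held the top. The rise of D53 was steepest for psma1, at 279 CPM against 37.0 to 55.2 CPM in the other 5 domesticated libraries. Wild library W53, the paired progenitor, was the highest wild library for psma1 at 145 CPM, with the others between 50.1 and 81.5 CPM. psma8, known in mammals as a testis form of an alpha subunit, behaved alike here, at 386 CPM in D53 and 60.6 to 139 CPM in the other domesticated libraries, against 98.1 to 231 CPM in wild libraries. The untested psma6l lay between 0.718 and 1.298 CPM in domesticated libraries and between 1.103 and 2.58 CPM in wild libraries. Its domesticated values were lower in 6 of 6 pairs, as were those of 9.14% of all genes tested. It held few reads, 4 to 8 counts in domesticated and 6 to 22 in wild libraries. In pair 53 both libraries held 8 counts and differed only by scaling.

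The inner rings showed the same library pattern. The constitutive beta genes summed to 247, 316 and 924 CPM in domesticated libraries and 254, 325 and 526 CPM in wild libraries. Apart from D53 the domesticated libraries lay within or just below the wild range. psmb5, which carries the chymotrypsin-like activity, had 42.0, 52.6 and 163 CPM in domesticated libraries and 34.5, 52.9 and 89.0 CPM in wild libraries (log2 fold change 0.21 ± 0.33 SE, adjusted p = 0.712). psmb6, which carries the caspase-like activity, had 43.6, 50.2 and 121 CPM in domesticated libraries and 29.1, 47.9 and 65.7 CPM in wild libraries (0.27 ± 0.28 SE, adjusted p = 0.561). For both catalytic subunits D53 was alone above the wild range and the medians of the groups were close. psmb3, a structural ring subunit, had the most positive fold change of the role, with 54.7, 66.5 and 148 CPM in domesticated libraries and 48.1, 52.5 and 82.8 CPM in wild libraries (0.38 ± 0.27 SE, adjusted p = 0.364). psmb4, also structural, had the most negative one, with 56.5, 87.9 and 260 CPM in domesticated libraries and 57.8, 104 and 168 CPM in wild libraries (-0.02 ± 0.35 SE, adjusted p = 0.972). The direction of psmb4 turned under several settings and is not read. psmb2 was the core, base or lid gene for which D53 stood out least, at 28.6 CPM in D53, 10.96 to 18.2 CPM in the other domesticated libraries and 9.81 to 31.0 CPM in wild libraries.

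In the base, the 5 ATPase genes tested summed to 178, 267 and 730 CPM in domesticated libraries and 176, 280 and 443 CPM in wild libraries. D53 was the highest of the 12 libraries for each of the 5. psmc4, a ring ATPase, had 40.2, 68.1 and 169 CPM in domesticated libraries and 33.4, 57.6 and 102 CPM in wild libraries (log2 fold change 0.33 ± 0.35 SE, adjusted p = 0.554). psmc6, another ATPase of the ring, had 27.0, 49.2 and 129 CPM in domesticated libraries and 38.7, 52.1 and 93.6 CPM in wild libraries (-0.03 ± 0.34 SE, adjusted p = 0.962). These were the extremes of the role, and their groups overlapped throughout. The 3 base genes that are not ATPases summed to 197, 233 and 586 CPM in domesticated libraries and 165, 251 and 426 CPM in wild libraries. psmd4a, a receptor for ubiquitin chains, had 46.3, 55.9 and 124 CPM in domesticated libraries and 40.4, 44.4 and 77.1 CPM in wild libraries, and its fold change was the most positive of the 28 (0.40 ± 0.27 SE, adjusted p = 0.344). psmd2, the scaffold that docks ubiquitin shuttles, had 73.8, 86.8 and 236 CPM in domesticated libraries and 66.3, 105 and 182 CPM in wild libraries (0.06 ± 0.32 SE, adjusted p = 0.931). The second large scaffold gene, psmd1, ran between 73.5 and 226 CPM in domesticated and between 55.8 and 167 CPM in wild libraries.

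The 7 lid genes tested summed to 297, 380 and 1151 CPM in domesticated libraries and 299, 424 and 822 CPM in wild libraries. psmd14, the deubiquitinase of the lid, had 22.7, 51.8 and 143 CPM in domesticated libraries and 33.8, 52.2 and 116 CPM in wild libraries (log2 fold change -0.01 ± 0.41 SE, adjusted p = 0.994). W72 was the highest wild library for it, the others reaching 56.8 CPM, and its direction changed with the setting. psmd13, a structural lid subunit, had 57.5, 87.4 and 239 CPM in domesticated libraries and 45.8, 81.8 and 108 CPM in wild libraries (0.36 ± 0.33 SE, adjusted p = 0.494). psmd12, likewise structural, had 41.7, 50.7 and 183 CPM in domesticated libraries and 50.9, 68.4 and 130 CPM in wild libraries (-0.28 ± 0.36 SE, adjusted p = 0.650). Apart from D53, the domesticated libraries of psmd12 lay below the wild median, D70 being the highest of them at 65.8 CPM. psmd8 was an exception to the rank of D53, since W53 was higher at 186 CPM, with D53 at 173 CPM and the other domesticated libraries between 49.7 and 75.1 CPM.

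**Figure D2:**
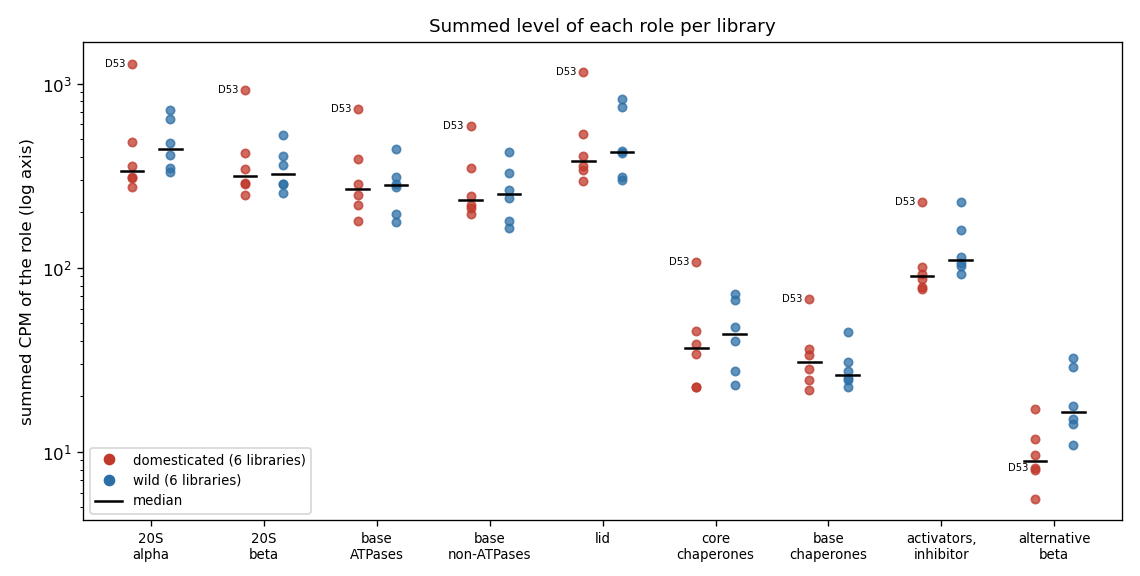
Summed CPM (log axis) of the members of each role in every library, domesticated left and wild right, with bars for the group medians. D53 is marked and stands above the other libraries in the core, base, lid and chaperone sums, such as 1275 CPM for the alpha ring, and within the other domesticated libraries in the alternative beta sum.

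Over all 28 core, base and lid members tested, log2 fold changes ran between -0.50 and 0.40, with 12 negative and a median of 0.04, and the lowest adjusted p was 0.344. The summed CPM of the 28 averaged 2074 ± 1313 in domesticated libraries and 1888 ± 655 in wild libraries (SD, n = 6 each). Without D53 the domesticated mean was 1556 ± 378 (SD, n = 5). As CPM of the library totals with no scaling factor, D53 was again the highest at 5979, with the other domesticated libraries between 728 and 2071 and the wild libraries between 866 and 3257. D53 thus stood apart on both scales.

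The ratio of D53 to the median of the other 5 domesticated libraries had a median of 3.00 over the 28 genes (1.72 for psmb2 to 7.23 for psma1) and of 1.01 over all genes tested. It exceeded 2-fold for 27 of the 28 genes and for 11.8% of all genes tested. Other libraries also held a common place over many members. W72 was the second highest library for 15 of the 28, D70 for 6 and W53 for 4, while W68 was the lowest for 10 and D63 for 9.

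**Figure D3:**
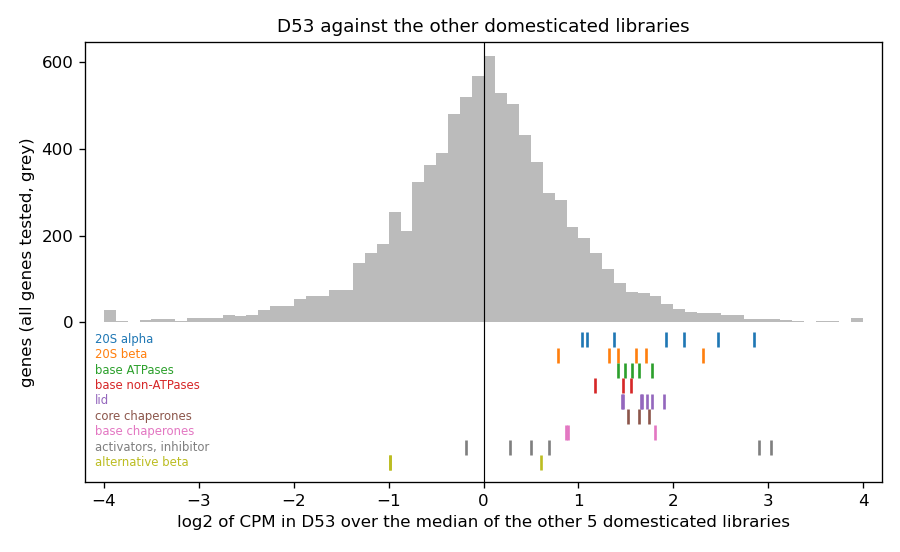
Histogram of the log2 ratio of CPM in D53 to the median of the other 5 domesticated libraries for all genes tested (grey, values beyond 4 placed at 4, genes at 0 left out), with a tick for each member tested below, by role. The ticks of core, base, lid and chaperone genes lie right of 0 and those of psmb8a and psmb9a left of it, psmb13a being at 0 counts in D53 and so not drawn.

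The core and the 19S genes kept similar proportions between libraries. The sum of the core over that of the 19S genes lay between 0.711 and 0.892 in domesticated libraries and between 0.688 and 0.963 in wild libraries, while the 19S sum itself ranged 3.85-fold. The sum of alpha over beta genes varied more, between 1.04 and 1.38 (median 1.09) in domesticated libraries and between 1.17 and 1.76 (median 1.34) in wild libraries, with W53 the highest. The SD of log2 CPM over the 12 libraries had a median of 0.615 over the 28 genes, close to the 0.647 of all genes tested. It was 0.273 once each library's mean over the other members was subtracted. Neither this subtraction nor the ratio of sums was made for other gene sets. Whether the common movement is particular to these genes was therefore not tested. Within groups the median SD was 0.730 in domesticated libraries, 0.352 without D53, and 0.542 in wild libraries, where all genes tested had 0.521, 0.458 and 0.585. As a description, the wild libraries were more spread than the 5 remaining domesticated ones, and D53 widened the domesticated group beyond both. D53 was left out for its height while all wild libraries were kept, which by itself narrows the domesticated group. All genes tested had the same order, 0.458 without D53 against 0.585 in wild libraries.

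Within the pairs named by the submitters, the core sum had no common direction. The log2 ratio of domesticated over wild was 0.97 in pair 53, 0.19 in pair 68 and 0.11 in pair 70, and -0.21 in pair 63, -0.23 in pair 66 and -0.96 in pair 72. The 19S sum gave 0.84 in pair 53, 0.55 in pair 68 and 0.39 in pair 70, and -0.03 in pair 63, -0.28 in pair 66 and -1.05 in pair 72. The same 3 pairs were thus positive for both sums and the same 3 negative. Of the 44 members tested, psmd9 was higher in the domesticated fish in 6 of 6 pairs, as were 8.69% of all genes tested, and psmb13a and psme4a were lower in 6 of 6 pairs, as were 9.14% of all genes tested.

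D53 was the highest of the 12 libraries for 33 of the 44 members tested, so leaving out this library, picked for its height, moved most members downward. The values that follow give the size of that shift and are no separate support for a difference between the groups. With the remaining 11 libraries, 8678 genes were tested, of which 6.94% were higher and 7.41% lower in domesticated fish, and 0 of 44 members were higher and 2 lower, namely psmf1 and psmb13a. The log2 fold change was then negative for 31 of 44 members with a median of -0.24, against -0.03 over all genes tested. Of the 28 core, base and lid members, 20 were negative, with a median of -0.18 and a range of -0.91 to 0.22, and the lowest adjusted p was 0.0944. Without D53, psma1 (-0.66, adjusted p = 0.131), psma4 and psma5 (-0.73, adjusted p = 0.116) were the 3 of the 28 with an unadjusted p below 0.05, where 30.4% of all genes tested had one.

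**Figure D4:**
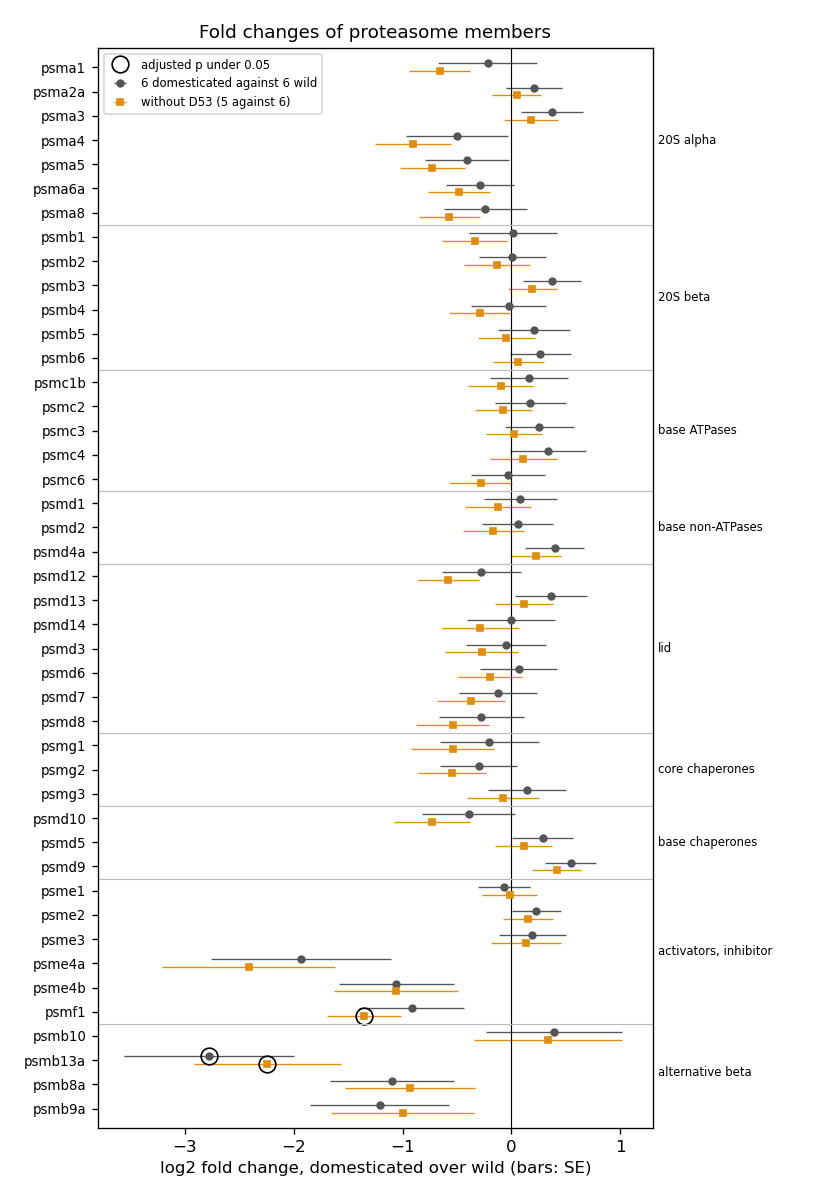
Log2 fold change of domesticated over wild (bars, SE) for the 44 members tested, by role, from all 12 libraries (grey circles) and without D53 (orange squares), with rings at adjusted p below 0.05. Only psmb13a is ringed in both fits and psmf1 in the fit without D53, and the core, base and lid genes lie between -0.91 and 0.40.

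The chaperones that assemble the core followed the core. The psmg genes summed to 22.5, 36.4 and 107 CPM in domesticated libraries and 23.1, 43.9 and 71.7 CPM in wild libraries, D53 being the highest of 12 for all 3 that were tested. psmg2 (PAC2, which pairs with the psmg1 product on the alpha ring) had 4.85, 7.74 and 21.1 CPM in domesticated libraries and 6.13, 10.3 and 19.03 CPM in wild libraries (log2 fold change -0.30 ± 0.35 SE, adjusted p = 0.607). psmg3 (PAC3, which acts in the same step) had 3.89, 7.32 and 17.9 CPM in domesticated libraries and 4.50, 6.92 and 10.8 CPM in wild libraries (0.15 ± 0.36 SE, adjusted p = 0.826). Their groups overlapped.

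The chaperones that assemble the base summed to 21.7, 30.8 and 67.2 CPM in domesticated libraries and 22.5, 26.3 and 44.9 CPM in wild libraries. psmd9 (p27, which escorts a pair of base ATPases) had 7.54, 9.84 and 17.03 CPM in domesticated libraries and 5.89, 6.996 and 9.03 CPM in wild libraries, with a log2 fold change of 0.54 ± 0.24 SE (adjusted p = 0.136). D53, D63, D70 and D72 lay above every wild library and D66 and D68 within the wild range, and without D53 the fold change was 0.41 (adjusted p = 0.232). psmd10 (gankyrin) had 2.33, 5.89 and 20.5 CPM in domesticated libraries and 4.50, 8.77 and 14.03 CPM in wild libraries (-0.39 ± 0.42 SE, adjusted p = 0.570). D66 was its lowest and D53 its highest library. psmd5, which also holds base ATPases before assembly, lay between 9.30 and 29.7 CPM in domesticated and between 10.8 and 21.8 CPM in wild libraries.

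The activator genes and psmf1 together summed to 76.7, 89.6 and 227 CPM in domesticated libraries and 92.8, 110 and 226 CPM in wild libraries. D53 stood out less in the PA28 genes among them than in most core, base and lid genes. psme1 and psme2 encode PA28 alpha and beta, the cap that is induced by interferon. psme1 lay between 12.6 and 22.5 CPM in domesticated and between 11.3 and 22.4 CPM in wild libraries, with 14.5 CPM in D53. psme2 had 10.4, 17.6 and 21.3 CPM in domesticated libraries and 9.93, 13.7 and 18.04 CPM in wild libraries (log2 fold change 0.23 ± 0.22 SE, adjusted p = 0.527). The groups overlapped. D53 was the highest of the 12 libraries for psme2, and it was 1.21 times the median of the other domesticated libraries for psme2, 0.882 times for psme1 and 1.61 times for psme3, the last close to the 1.72 times of psmb2. psme3, the nuclear PA28 gamma, lay between 17.7 and 46.9 CPM in domesticated and between 13.002 and 42.0 CPM in wild libraries.

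Both genes for PA200, an activator that needs no ubiquitin or ATP, were at low counts. All counts of psme4a lay on 1 of its 2 transcripts, so the limit on reads that overlap several entries applies to it. It held 38 counts in D53, 16 in D66, 4 in D68, 3 in D72, 1 in D70 and 0 in D63, against 6 to 49 in wild libraries. psme4a (GeneID 100701711) had 0, 0.705 and 4.26 CPM in domesticated libraries and 0.703, 3.5997 and 6.91 CPM in wild libraries, with a log2 fold change of -1.93 ± 0.83 SE (adjusted p = 0.131). D53 and D66 held 4.26 and 2.87 CPM while the other domesticated libraries were at or under 0.887 CPM, and without D53 the fold change was -2.42 (adjusted p = 0.0537). psme4b (GeneID 100710300) had 0.871, 1.22 and 4.13 CPM in domesticated libraries and 0.681, 4.07 and 6.62 CPM in wild libraries (-1.06 ± 0.53 SE, adjusted p = 0.196). D66 was its only domesticated library above 1.57 CPM and W68 its lowest wild library, and leaving out W68 took it past the threshold (-1.47, adjusted p = 0.0477). That call depended on leaving out the lowest wild library and is no separate support for a difference. The minimum of the count filter was reached by psme4a in 5 wild and 2 domesticated libraries and by psme4b in 4 and 2. Both genes thus passed the filter mostly through wild libraries, and their p is not independent of it.

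psmf1 (GeneID 100693714), whose product PI31 binds the core and was first described as an inhibitor, had 18.7, 23.9 and 151 CPM in domesticated libraries and 38.7, 48.9 and 147 CPM in wild libraries. Its log2 fold change was -0.91 ± 0.48 SE (adjusted p = 0.220). D53 and its pair W53 were the highest library of their group, at 151 and 147 CPM, and the groups overlapped through D53. The other 5 domesticated libraries, at most 35.0 CPM, all lay below the lowest wild library. That separation sets aside the highest domesticated library, and the share of all genes tested that separate in this way was not computed. Without D53 the log2 fold change was -1.35 ± 0.34 SE (adjusted p = 0.0184), and without both libraries of pair 53 it was -1.11 (adjusted p = 0.0202). The call of psmf1 therefore depended on leaving out D53, its highest library.

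**Figure D5:**
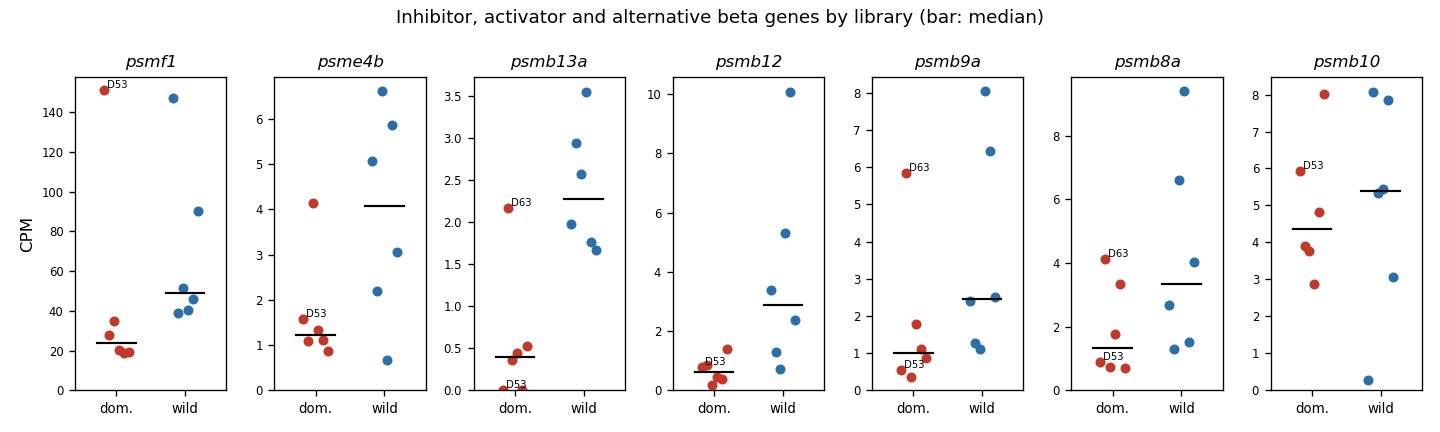
CPM of psmf1, psme4b, psmb13a, psmb12, psmb9a, psmb8a and psmb10 in each library (points), domesticated left and wild right, with bars for the medians and every axis starting at 0. For psmf1 the groups overlap through D53, the other domesticated libraries lying at or below 35.0 CPM, under all wild libraries. For psmb13a only D63 reaches the wild range.

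The alternative beta genes did not share the rank of D53, which was the highest of the 12 libraries for 0 of the 4 tested. The genes psmb9a, psmb12, psmb13a and psmb8a follow each other on linkage group 22 with no gene between them in the annotation, as in zebrafish, where they lie in the major histocompatibility complex class I region. In mammals the psmb8 and psmb9 products replace the chymotrypsin-like and caspase-like subunits in the immunoproteasome, whereas psmb12 and psmb13 are known from fish. All 7 alternative beta genes summed to 5.57, 8.91 and 17.1 CPM in domesticated libraries and 10.9, 16.4 and 32.3 CPM in wild libraries. Their log2 ratio of domesticated over wild was -0.41, 0.18, -1.68, -2.02, -1.59 and -0.28 (pairs 53, 63, 66, 68, 70 and 72). The 4 neighbouring genes, a part of this role, together had 1.62, 3.96 and 12.98 CPM in domesticated libraries and 6.79, 10.8 and 26.3 CPM in wild libraries. D63 held the 12.98 CPM and the other 5 domesticated libraries, at most 4.82 CPM, lay below all wild libraries. For these 4 genes the log2 ratio was -2.22 in pair 53, -2.77 in pair 66, -2.57 in pair 68, -2.04 in pair 70 and -1.60 in pair 72, and 0.93 in pair 63. The sum of the 4 was therefore lower in the domesticated fish in 5 of 6 pairs, and since the members were chosen with results known, no p is given for it. The share of all genes tested that were lower in 5 of 6 pairs, or separated apart from 1 domesticated library, was not computed. Each of the 4 genes reached the minimum of the count filter in more wild than domesticated libraries, so the sum is no separate support for a difference.

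psmb13a (GeneID 100697564) was the member that fell. Its counts were 0 in D53, 10 in D63, 2 in D66, 2 in D68, 0 in D70 and 3 in D72, against 14 in W53, 16 in W63, 14 in W66, 26 in W68, 15 in W70 and 12 in W72. In CPM it had 0, 0.401 and 2.16 in domesticated libraries and 1.67, 2.27 and 3.54 in wild libraries. Only D63 overlapped the wild range, and the domesticated library was the lower in 6 of 6 pairs. The minimum of 10 scaled counts was reached in 6 wild and 0 domesticated libraries, so the gene was tested only because it was high in wild fish, and its p is not independent of that filter. The log2 fold change was -2.78 ± 0.78 SE (adjusted p = 0.0303), on a scale with a pseudocount of 0.5, and -1.90 with a pseudocount of 2 (adjusted p = 0.0240). With no filter on low counts its adjusted p was 0.0217. The call was lost when W66 (adjusted p = 0.0630), W68 (0.0629), W70 (0.0506), D70 (0.0664) or both libraries of pair 53 (0.0515) were left out.

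The neighbours of psmb13a had lower medians in domesticated than in wild libraries, and neither psmb8a nor psmb9a passed the test. psmb8a had 0.697, 1.34 and 4.11 CPM in domesticated libraries and 1.29, 3.35 and 9.40 CPM in wild libraries (log2 fold change -1.09 ± 0.57 SE, adjusted p = 0.213). psmb9a had 0.359, 0.992 and 5.84 CPM in domesticated libraries and 1.103, 2.45 and 8.04 CPM in wild libraries (-1.21 ± 0.64 SE, adjusted p = 0.220). D63 was the highest domesticated and W68 the highest wild library for both, and the groups overlapped for both. The minimum of the count filter was reached by psmb8a in 5 wild and 3 domesticated libraries and by psmb9a in 5 and 2. psmb12, under the count filter, had 0.180, 0.614 and 1.39 CPM in domesticated libraries and 0.736, 2.87 and 10.1 CPM in wild libraries. It was lower in 6 of 6 pairs, as were 9.14% of all genes tested. When the filter was dropped psmb12 was called (log2 fold change -1.95, adjusted p = 0.0486).

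Alternative beta genes outside linkage group 22 were also examined, with no test of a difference from the neighbouring genes. psmb10, in mammals the immunoproteasome counterpart of psmb7, had 2.88, 4.36 and 8.02 CPM in domesticated libraries and 0.282, 5.39 and 8.08 CPM in wild libraries (log2 fold change 0.40 ± 0.63 SE, adjusted p = 0.715). W53 was its lowest library, without which the log2 fold change was -0.27. The psmb11 genes, in mammals a form of the thymus, were near the limit of detection. psmb11a was at most 0.444 CPM in any library, and psmb11b had 0, 0.177 and 0.222 CPM in domesticated libraries and 0.141, 0.550 and 1.17 CPM in wild libraries. psmb11b was lower in domesticated fish in 5 of 6 pairs, on 0 or 1 counts in domesticated and 1 to 10 in wild libraries. In pair 63 both libraries held 1 count. The share of all genes tested that were lower in 5 of 6 pairs was not computed.

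Leukocytes express the alternative beta genes, and their markers were examined beside them. Of 19 leukocyte markers in the files 13 were tested, and 0 were higher and 3 lower in domesticated fish, namely dock2, ncf1 and rac2. Of all genes tested, 6.69% were higher and 6.5% lower. The log2 fold change was negative for 11 of the 13 and positive for lcp1 (0.89, adjusted p = 0.130) and mpx (0.75, adjusted p = 0.220). The sum over the whole list was 1397 to 4690.5 CPM in domesticated and 1005 to 2759 CPM in wild libraries and was mostly lcp1. Without lcp1 the markers summed to 250 to 411 CPM in domesticated and 268 to 706 CPM in wild libraries, with D63 at 364 CPM, while lcp1 averaged 2432 ± 1209 CPM in domesticated and 1278 ± 559 CPM in wild libraries (SD, n = 6 each). Most of the remaining sum was cd74a, which averaged 250 CPM in domesticated and 390 CPM in wild libraries. The defining markers spi1a, spi1b and csf1ra, each with 2 or more transcripts, were at 0 counts. The part of leukocytes in the level of these genes was not tested.

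Partners of the proteasome without a psm symbol were described for comparison. Of 27 such genes in the files 18 were tested, and 0 were higher and 1 was lower, no larger a share than the 6.5% of all genes tested that were lower. The gene called lower was zfand5a, which in mice encodes a zinc finger protein that binds the proteasome and is induced in wasting muscle, with 5.58, 8.69 and 10.9 CPM in domesticated libraries and 11.8, 20.04 and 53.7 CPM in wild libraries (log2 fold change -1.41 ± 0.33 SE, adjusted p = 0.0153). Its groups did not overlap, and 2.17% of all genes tested lay wholly lower in domesticated fish. It has 3 annotated transcripts, so the limit on reads that overlap several entries applies to its level as well. D53 was the highest of 12 libraries for 6 of the 18, a share of 33.3%, against 13.2% of all genes tested. Among them was pomp, the chaperone that matures the core, at 157 CPM in D53. The other domesticated libraries had 31.8 to 85.8 CPM of pomp and the wild libraries 37.1 to 72.9 CPM. sem1, a small lid subunit with another symbol, had 176 CPM in D53, against 47.2 to 84.3 CPM in the other domesticated and 53.1 to 79.2 CPM in the wild libraries. txnl1, a thioredoxin-like protein of the 19S cap, had 208 CPM in D53, 36.3 to 62.5 CPM in the other domesticated libraries, 152 CPM in W53 and 48.8 to 121 CPM in the other wild libraries. By contrast the ubiquitin fusion genes did not follow D53, rps27a having 884 CPM there, with 800 to 1792 CPM in the other domesticated and 733 to 1633 CPM in wild libraries. The ratio of D53 to the median of the other domesticated libraries ran between 0.896 and 5.12 over the 18 partners. Its median was 1.41, against 1.01 over all genes tested, and it exceeded 2-fold for 7 of the 18, against 11.8% of all genes tested.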

How the data were processed

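The authors deposited 1 table per library of raw, unnormalized read counts by transcript, a unit named other here because commas and tabs mix in the tables. The submitters' processing notes name Trimmomatic 0.33, STAR, HTSeq and edgeR. Other versions, settings and the genome build of the counts were not given in the sources used here. Counts were summed per GeneID (symbols from RefSeq, O_niloticus_UMD_NMBU). On average 11.2% of alignments fell in no feature, 13.4% were ambiguous and 51.5% not unique, and these stayed out of the totals.

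Genes were kept where 6 or more libraries (5 with a library left out) reached 10 size-scaled counts and the total 15. Log2 CPM (pseudocount 0.5, trimmed mean of M values) was fitted with limma 3.58.1 in R 4.3.3 (trend, robust, group as the only term, all 8425 genes) and p-values were adjusted by Benjamini-Hochberg, two-sided. No count model was run, since the tables were not readable as counts in the unit check. On simulated data 84% of 4-fold and 18% of 2-fold changes were recovered in this comparison. p-values measure the spread between fish.

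The labels pair W and D fish of the same number. Deviations from the group means correlated within pairs at 0.209, 0.123, 0.0458, -0.101, -0.0888 and 0.0455 (pairs 53, 63, 66, 68, 70 and 72). The fit without the pair is the main one and the fit with it an alternative.

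Members, roles and lists were chosen with earlier results of these data known. Values are given for members called, the extremes of each role, the catalytic and alternative beta genes, psmd4, psmd14, psme4 and psmf1. Other members and the partners beyond zfand5a were named after their values were seen. Alternatives were the filter, scaling, pseudocount, limma settings, pair block, genes with 1 transcript and each library left out. The set without pair 53 was added after seeing the data.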

Additional observations from a re-analysis of the deposited data

Results flagged for a closer look

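Within each group of 6 fish, the highest or lowest library was compared with its nearest neighbour, and the gap was divided by the range of the group, and set against Dixon's critical value for 6 values, which chance passes in about 1 in 20 groups. Over the 88 groups of the 44 members, D53 stood apart in 22 and other libraries in 6. The members moved together in D53, so these groups are not independent and the counts cannot be set against that rate. The same count over all genes tested was not made.

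Among the summed levels D53 stood apart in the alpha ring (0.792), the constitutive beta ring (0.744), the core as a whole (0.773), the lid (0.724), the 19S sum (0.667), core chaperones (0.731), base chaperones (0.681) and activators with the inhibitor (0.840). Among the genes given by value it stood apart for psmf1 (0.877), psmd12 (0.830), psmb4 (0.779), psma4 (0.767), psmd10 (0.764), psmb6 (0.759), psmg2 (0.712), psmb5 (0.702), psmd2 (0.679), psmb3 (0.647) and psmd13 (0.638). W72 stood apart among wild fish for the base chaperones (0.638) and psmd14 (0.719). D63 stood apart for the sum of the 4 neighbouring beta genes (0.718), psmb13a (0.758) and psmb9a (0.742), and D66 for psme4b (0.786). The cause was not tested.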

How the results depend on the processing

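The count of members lower in domesticated fish, 1 in the fit reported, was 2 with no filter on low counts (psmb13a and psmb12), 0 with a minimum of 50 counts, where psmb13a was not tested, and between 0 and 2 when each library was left out. Of all genes tested, 548 of 8425 were lower in the fit reported, 352 of 31551 with no filter and 406 of 4578 with a minimum of 50 counts. With each library left out the count ran between 307 of 9009 (without D70) and 643 of 8678 (without D53). Members higher in domesticated fish were 0 under every alternative. Of all genes tested, 564 of 8425 were higher in the fit reported, 87 of 8425 with library totals only and 403 of 4578 with a minimum of 50 counts. The count of partners called lower, 1 in the fit reported, was 2 with a minimum of 50 counts and 2 with library totals only (zfand5a and zfand5b in both), 0 among genes with 1 annotated transcript, where zfand5a is not included, and between 1 and 2 when each library was left out. Of all genes tested, 593 of 8425 were lower with library totals only and 510 of 7515 among genes with 1 annotated transcript. The pair number as a replicate block changed no call, with psmb13a at an adjusted p of 0.0299 and 1 member lower, where 556 of all 8425 genes tested were lower.

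With library totals only, the median of all genes shifted to -0.42 and that of the members to -0.40, with 43 of 44 members negative, and the log2 fold change turned for psma3 (-0.032), psmb10 (-0.0097), psmb3 (-0.028), psmb5 (-0.20), psmb6 (-0.14), psmc4 (-0.071), psmd13 (-0.043), psmd2 (-0.35), psmd4a (-0.0085), psme2 (-0.18) and psmg3 (-0.26). With no filter it turned for psmb4 (0.12), psmc6 (0.11) and psmd14 (0.14), with median of ratios scaling for psmb4 (0.0027) and psmd14 (0.021), with upper quartile scaling for psmd14 (0.0098), with a minimum of 50 counts for psmd2 (-0.023), and without both libraries of pair 53 for psmb10 (-0.35), psmb5 (-0.057), psmd2 (-0.13) and psmg3 (-0.096). Leaving out each library gave -0.27 to 0.65 for psmb10, -0.29 to 0.16 for psmb4, -0.049 to 0.36 for psmb5, -0.28 to 0.18 for psmc6, -0.29 to 0.26 for psmd14, -0.16 to 0.23 for psmd2 and -0.078 to 0.37 for psmg3. The lowest adjusted p of a value that turned was 0.535. Of 566 values of the 25 genes given by value under 23 settings, 511 kept their direction and their side of the threshold. At these depths 3 counts stand for up to 0.666 CPM, so a difference of psmb11a was not detectable.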
